A study of Mus musculus with 10 samples.

Results

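Forkhead genes encode transcription factors with a winged-helix DNA-binding domain and are grouped into subfamilies by letter. The genes described here are those of subfamilies B to S without Foxh1, and without Foxa1 to Foxa3, the best known forkhead genes of endoderm. They were found by symbol (Fox, 1 letter from b to s, and a number) among the gene names that the authors' lists of ChIP regions carry. The lists named 32 of the 40 such genes that RefSeq knows in the mouse, out of 10730 gene symbols in all, and tied 217 of 78263 regions to them. The other 8 genes, Foxi1, Foxi2, Foxk2, Foxl1, Foxm1, Foxp3, Foxr1 and Foxs1, had no region in any list. Foxf1 appears as Foxf1a, its older symbol.

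The study mapped binding of HEB and of SMAD2/3 by ChIP-seq, chromatin immunoprecipitation followed by sequencing, in mouse embryonic stem cells (ESC) of the CGR8 line and in endoderm derived from them. Differentiating cells were kept without serum and given Activin A at 100 ng/ml from day 2 to harvest on day 4 (the Endoderm groups). ESC were grown without feeders in serum and LIF. SB431542, an inhibitor of the Activin, Nodal and TGF-beta type I receptors, was given at 10 µM, for 48 hours beside Activin A (Endoderm+SB) and for 24 hours in stem cells (ESC+SB). The 6 ChIP libraries were Endoderm+SB HEB, Endoderm HEB, ESC+SB HEB, ESC HEB, Endoderm SMAD2/3 and ESC SMAD2/3, and 4 libraries of input DNA gave the background, 1 for each kind of cells, so that the SMAD2/3 and HEB libraries of the same cells share an input. SMAD2/3 was profiled without SB431542 only. ChIP libraries hold no expression values, so the labelled cell types could not be checked by marker genes, and a gene's region does not show whether the gene was transcribed. The labels name the cells with SB431542 as endoderm too, although SB431542 targets the receptors of the Activin A that drives the differentiation.

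HEB, the product of Tcf12, is a basic helix-loop-helix factor that binds E-box sequences as a dimer. SMAD2 and SMAD3 carry the Activin and Nodal signal from the receptors to the nucleus, where they bind DNA weakly and rely on partner factors. Forkhead genes of subfamilies C, F and L act mainly in mesoderm and its derivatives, and those of K, O and P are expressed in many tissues. Many of those of B, D, E and I act in ectoderm, neural tissue, neural crest and placodes. Foxe1, a thyroid gene, and Foxd1, a gene of kidney stroma, are exceptions.

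There was 1 ChIP library per group, so no difference between groups has a replicate check, no p-value can be given, and the values are set side by side. The authors' height is the greatest ChIP signal in a region, and their tag ratio is the fold of ChIP over input tags that the lists give for it. The tag ratio is used as listed and is not always the plain quotient of the tag counts. A Foxp2 region in Endoderm HEB with 165 ChIP tags and 4 input tags, for example, has a listed tag ratio of 26.8. The lists held 10147 regions for Endoderm+SB HEB, 18981 for Endoderm HEB, 16769 for ESC+SB HEB, 17222 for ESC HEB, 11033 for Endoderm SMAD2/3 and 4111 for ESC SMAD2/3. ChIP tags in listed regions totalled between 933126 in ESC SMAD2/3 and 5051930 in Endoderm HEB. The smallest height listed was 28 in ESC+SB HEB and 25 in the other 5 lists. Coordinates are those of the mm9 build, as deposited. A region was tied to a gene where the gene lay within 1 kb of it, and the 5′ distance is that from the region's nearer edge to the gene's 5′ end.

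The promoters of Foxp4, Foxf2 and Foxl2 are shown because their 5′ ends lay inside ChIP regions of different sets of lists. Foxp4, a partner of the lung and foregut factors Foxp1 and Foxp2, had a region over its 5′ end in all 4 HEB lists and in Endoderm SMAD2/3. Foxf2, a factor of gut mesenchyme, had one in Endoderm HEB, ESC+SB HEB, ESC HEB and Endoderm SMAD2/3. Foxl2, a factor of ovarian granulosa cells, had one in ESC+SB HEB and ESC HEB. Each sequence is RefSeq's window from 250 bases before to 50 after the transcript start in the GRCm38.p6 build, written along the gene's strand, with every match to the E-box CANNTG in capitals. The windows are chr17:47924583-47924882 on the minus strand for Foxp4, chr13:31625566-31625865 on the plus strand for Foxf2 and chr9:98955357-98955656 on the plus strand for Foxl2.
Foxp4: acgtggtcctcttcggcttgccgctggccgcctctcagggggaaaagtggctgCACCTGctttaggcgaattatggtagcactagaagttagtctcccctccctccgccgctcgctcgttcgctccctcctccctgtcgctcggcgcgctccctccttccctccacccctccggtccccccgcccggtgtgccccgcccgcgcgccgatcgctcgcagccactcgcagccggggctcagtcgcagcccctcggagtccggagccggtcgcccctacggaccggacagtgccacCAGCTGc
Foxf2: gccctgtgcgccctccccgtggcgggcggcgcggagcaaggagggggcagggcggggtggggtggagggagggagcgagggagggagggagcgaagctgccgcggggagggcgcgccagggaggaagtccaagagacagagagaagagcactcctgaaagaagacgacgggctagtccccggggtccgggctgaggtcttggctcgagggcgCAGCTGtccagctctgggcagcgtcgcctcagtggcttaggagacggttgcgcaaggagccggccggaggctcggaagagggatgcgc
Foxl2: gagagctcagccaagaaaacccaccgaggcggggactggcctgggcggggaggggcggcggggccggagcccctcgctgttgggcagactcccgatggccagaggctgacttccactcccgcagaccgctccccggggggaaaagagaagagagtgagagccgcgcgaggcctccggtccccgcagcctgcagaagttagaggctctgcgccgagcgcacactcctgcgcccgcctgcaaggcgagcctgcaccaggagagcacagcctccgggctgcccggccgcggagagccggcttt
Foxp4 held 1 CACCTG and 1 CAGCTG, Foxf2 held 1 CAGCTG, and the Foxl2 window held no CANNTG. A region over a 5′ end is wider than this window, so its summit need not lie in the letters shown.

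Forkhead genes were listed most widely for HEB in stem cells. In Endoderm+SB HEB, 17 of the 40 genes had a region (42.5%), against 23.0% of the 21900 protein-coding genes. Endoderm HEB listed 22 (55%), with 24.9% of all protein-coding genes. ESC+SB HEB listed 32 (80%), with 29.9% of all. ESC HEB listed 29 (72.5%), with 24.1% of all. Endoderm SMAD2/3 listed 15 (37.5%), with 23.1% of all, and ESC SMAD2/3 listed 5 (12.5%), with 7.32% of all. The share of forkhead genes was thus above that of all protein-coding genes in each list, with no account taken of gene length. The regions numbered 23 in Endoderm+SB HEB, 51 in Endoderm HEB, 52 in ESC+SB HEB, 56 in ESC HEB, 29 in Endoderm SMAD2/3 and 6 in ESC SMAD2/3.

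Merging regions that overlapped between lists gave 89 sites, of which 32 appeared in 1 list and 2 in all 6. The pair in all 6 lists lay inside Foxk1, a regulator of muscle progenitors, and just upstream of Foxp2, a gene of lung and of brain circuits for vocalisation. Foxk1, Foxn3, Foxp1, Foxp2 and Foxp4 were the 5 genes named in every list, and they include all 5 genes that ESC SMAD2/3 named. Foxn1, the thymic epithelium factor, was named in 1 list. Its region in ESC+SB HEB, 25551 bp from the 5′ end, had a height of 30.9 and a tag ratio of 2.24, the lowest tag ratio of the 217 regions.

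**Figure D1:**
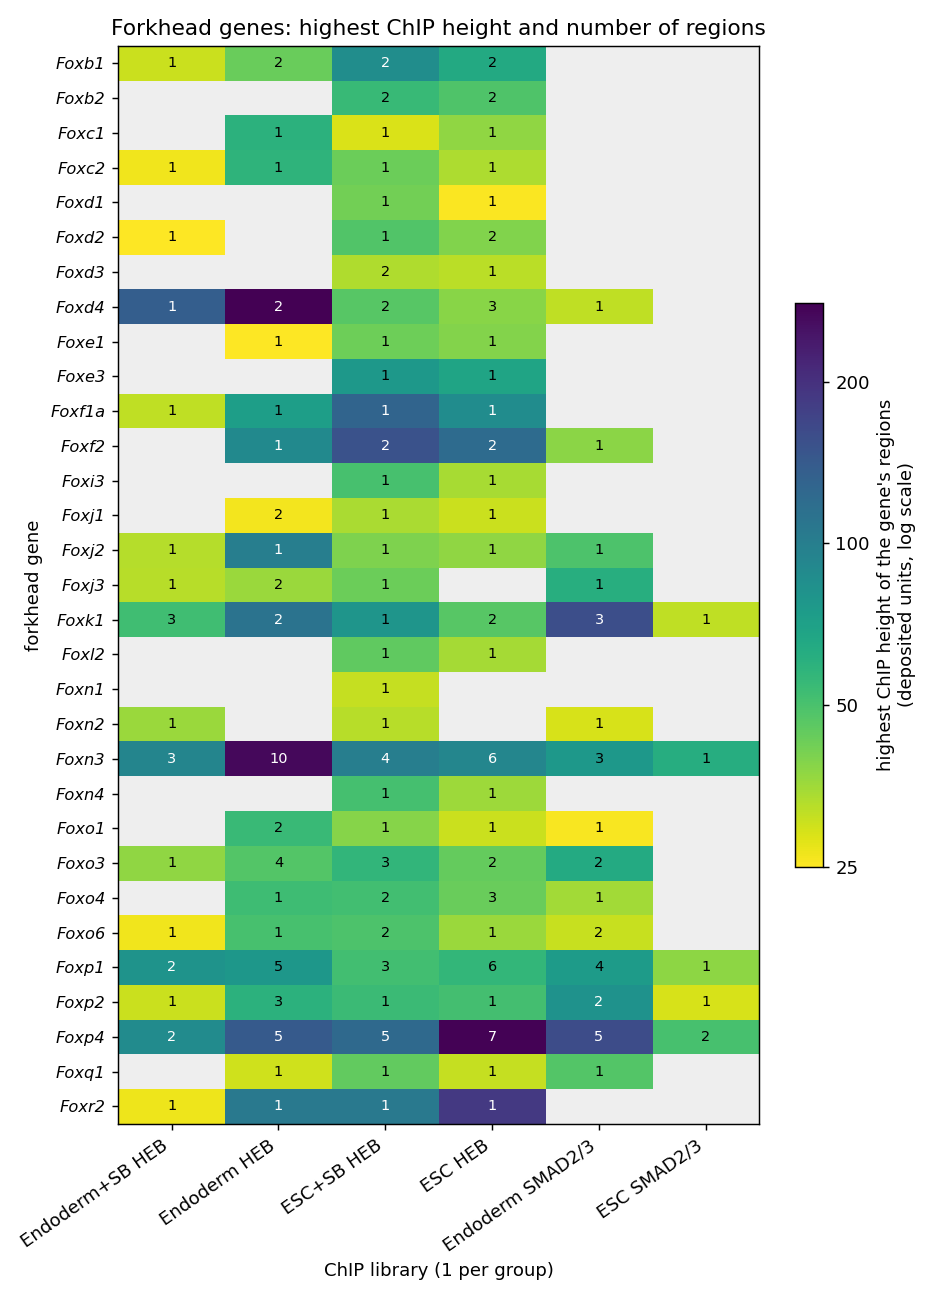
Highest ChIP height (colour, log scale, deposited units) and number of regions (digits) of 31 of the 32 listed forkhead genes in each of the 6 ChIP libraries, 1 library per group, with grey where no region was listed. The darkest cells are Foxd4 and Foxn3 in Endoderm HEB, at 279 and 267, and Foxp4 in ESC HEB, at 277, and the ESC SMAD2/3 column is filled for 5 genes.

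The first comparison asks where HEB was found in endoderm and where in stem cells. Here and in the comparisons below, forkhead genes were sorted by which of the compared lists named them. That split was not computed for all protein-coding genes, so it does not show whether forkhead genes differ from others. Without SB431542, HEB was listed at 21 forkhead genes in both states, at Foxj3 in endoderm and not in stem cells, and at 8 genes in stem cells and not in endoderm. These 8 were Foxb2, Foxd1, Foxd2, Foxd3, Foxe3, Foxi3, Foxl2 and Foxn4, and no Endoderm HEB region overlapped any of their regions. Most of them act in tissues other than endoderm. Foxe3, a lens gene, had heights of 77.5 in ESC+SB HEB and 68.6 in ESC HEB. Foxb2 had 55.1 and 35.6 at its regions in ESC+SB HEB, and 48.5 and 34.5 in ESC HEB. Foxn4, which acts in retinal and spinal progenitors, had 50.8 in ESC+SB HEB and 35.5 in ESC HEB.

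Foxi3, a gene of placodes and of hair and tooth buds, had 50.4 in ESC+SB HEB and 34.4 in ESC HEB. Foxl2 had 45 in ESC+SB HEB and 34.5 in ESC HEB, and its region was listed for the transcript Foxl2os too, so that it cannot be given to one gene. Foxd1, a gene of kidney stroma, had 41.7 in ESC+SB HEB and 25.4 in ESC HEB. Foxd3, which is needed for pluripotent cells and for neural crest, had 33.2 and 30.9 in ESC+SB HEB and 32 in ESC HEB. The median height of all regions was 40 in ESC+SB HEB and 37.6 in ESC HEB. Foxe3 stood above it in both lists, as did the tallest regions of Foxb2 and Foxd2, and Foxd3 stood below it in both.

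Foxd2 was the member of this group with a small region in Endoderm+SB HEB too, of height 25.1 and 236 bp. Its stem-cell regions were of height 48.2 in ESC+SB HEB and of heights 39.4 and 26.8 in ESC HEB. Foxj3 is the reverse case, with a region over its 5′ end of height 32.4 in Endoderm+SB HEB, 36 in Endoderm HEB, 43.2 in ESC+SB HEB and 61.8 in Endoderm SMAD2/3. ESC HEB listed none there. The region spans the start of the neighbouring AA415398 as well and is assigned to both genes in the lists.

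Of the 51 Endoderm HEB regions at forkhead genes, 28 overlapped an ESC HEB region by at least 1 bp, which is 54.9% (95% exact interval 40.3 to 68.9), and 29.1% of all Endoderm HEB regions did. Of the 56 ESC HEB regions at forkhead genes, 50% (36.3 to 63.7) overlapped an Endoderm HEB region, and 32.1% of all ESC HEB regions did. Intervals of this kind cover counting error only, and regions of 1 gene are not independent of each other. The ESC HEB regions with an endoderm counterpart had a median height of 47.4, against 33.2 for the 28 without one.

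Over the 27 overlapping pairs, the median log2 ratio of height, Endoderm HEB over ESC HEB, was -0.26, against -0.04 over all 5409 pairs. In tag ratio the direction turned, with 0.12 over the forkhead pairs and 0.28 over all pairs. The ratio of 5 of the 27 pairs lay at least 2-fold above the median of all pairs, as did 12.5% of all pairs. That of 1 lay at least 2-fold below it, as did 13.2% of all pairs. The largest ratio belonged to Foxd4, whose Xenopus counterpart acts in early neural ectoderm. Its upstream region, chr19:24976181-24977319 in Endoderm HEB, lay 382 bp from the 5′ end. The heights there were 136 in Endoderm+SB HEB, 279 in Endoderm HEB, 33.9 in ESC HEB and 31.4 in Endoderm SMAD2/3, and ESC+SB HEB listed no region over it. The log2 ratio of endoderm to stem cells was 3.04, and the tag ratios were 68.2 in Endoderm HEB and 12.5 in ESC HEB. A broader region over the Foxd4 gene itself went the other way, with 28.1 in Endoderm HEB, 46.7 in ESC+SB HEB and 38.3 in ESC HEB. The endoderm heights at Foxd4 were therefore high upstream of the gene and not over it.

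Foxn3, named checkpoint suppressor 1 for its action in yeast, held the most regions of any member in 1 list, 10 in Endoderm HEB, against 6 in ESC HEB. Its tallest region lay inside the gene, 107283 bp from the 5′ end (chr12:100579941-100581001 in Endoderm HEB). There the heights were 27.1 in Endoderm+SB HEB, 267 in Endoderm HEB, 99.5 in ESC+SB HEB, 79.6 in ESC HEB and 39.3 in Endoderm SMAD2/3. The Endoderm HEB value stands above all the others, with a log2 ratio to ESC HEB of 1.75. In Endoderm HEB, 5 more regions lay between 110961 and 123694 bp from the 5′ end, of heights 25.2 to 83.5, and ESC HEB had none among them. At the region 36998 bp from the 5′ end, the order was turned, with 49.5 in Endoderm HEB and 85.6 in ESC HEB (log2 ratio -0.79).

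Foxp4 was the reverse of Foxd4. It held 5 regions in Endoderm HEB and 7 in ESC HEB, more than any other member in ESC HEB. The region 46733 bp from the 5′ end in ESC HEB (chr17:48013662-48014848) had a height of 75.5 in Endoderm HEB, 69.3 in ESC+SB HEB and 277 in ESC HEB, and Endoderm+SB HEB listed none. The log2 ratio of endoderm to stem cells was -1.87. Over the 5′ end whose sequence is shown above, the heights were 36.5 in Endoderm+SB HEB, 56.3 in Endoderm HEB, 86.3 in ESC+SB HEB, 68.2 in ESC HEB and 42.3 in Endoderm SMAD2/3, a range far narrower than that of the intragenic region.

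Among the other named pairs, Foxp1 had 72.1 in Endoderm HEB and 25.1 in ESC HEB at the region 132377 bp from its 5′ end, a log2 ratio of 1.52. Foxr2, a gene switched on in some human brain tumours, had 105 in Endoderm HEB and 187 in ESC HEB over its 5′ end, a log2 ratio of -0.83. Foxj2 had 99.4 in Endoderm HEB and 37.5 in ESC HEB inside the gene, and Foxk1 had 95.6 in Endoderm HEB and 47 in ESC HEB, a log2 ratio of 1.02. Foxc1 and Foxc2, which act in vessels, lymphatics and somites, had 59.2 and 58.2 in Endoderm HEB, against 37.4 and 33.7 in ESC HEB. Foxf1a and Foxf2, both needed in the mesenchyme around the gut, had 72.2 and 89.2 in Endoderm HEB, against 86.3 and 120 in ESC HEB.

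**Figure D2:**
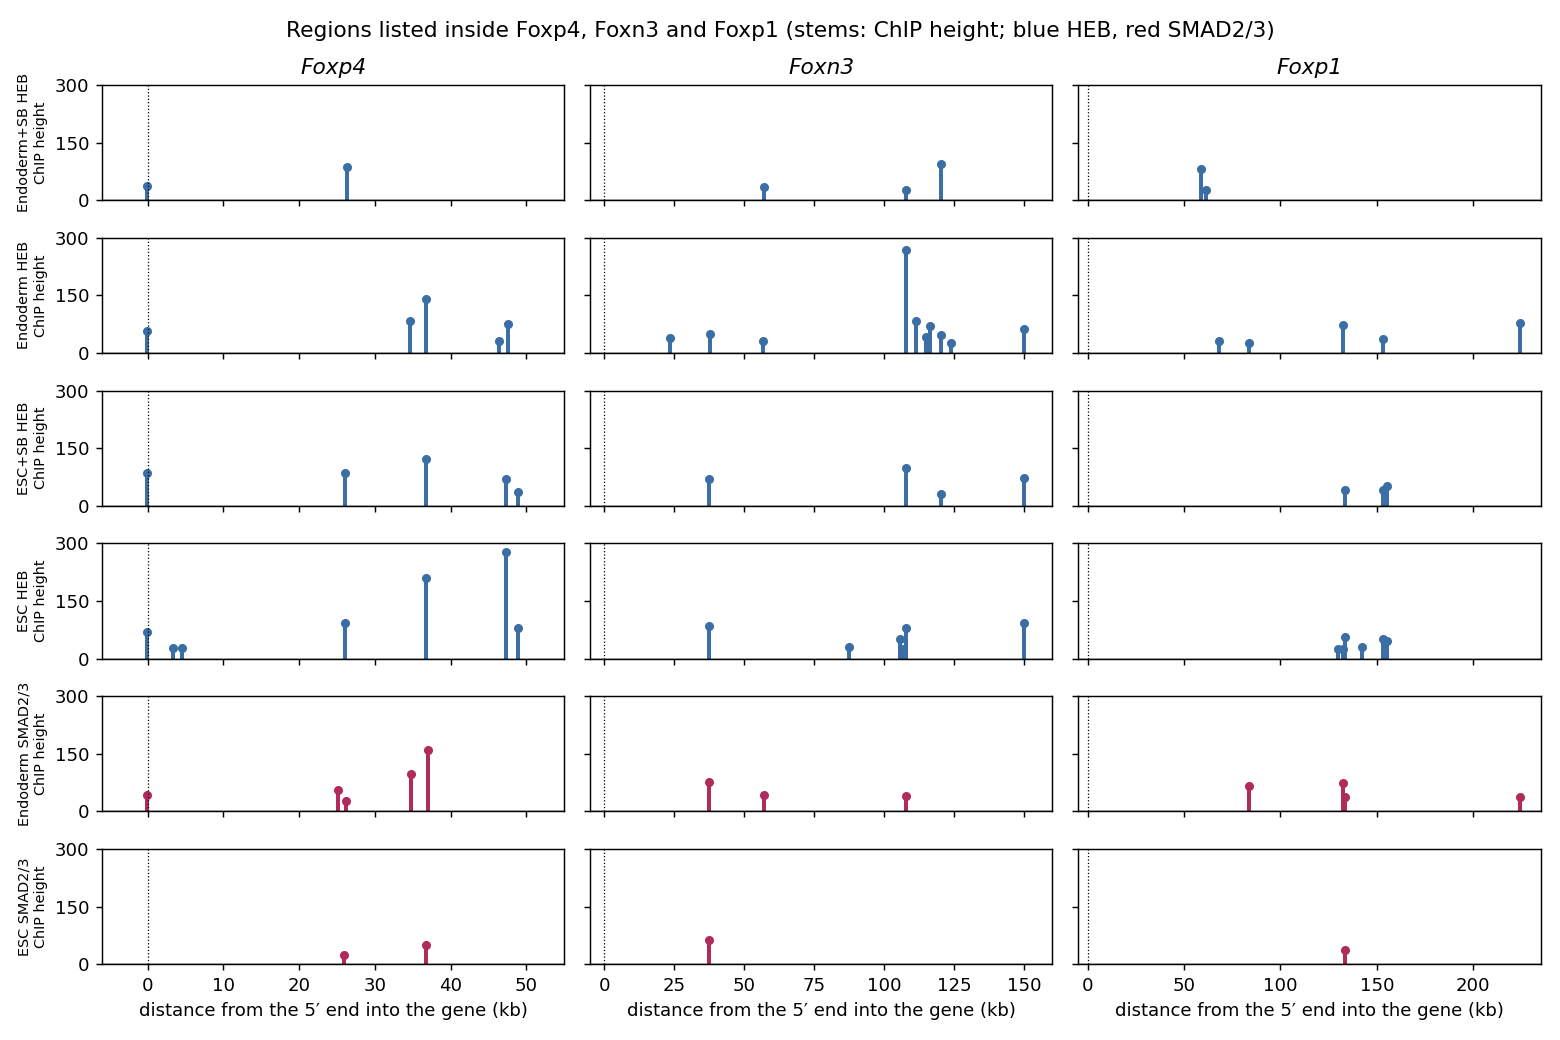
ChIP height (stems, deposited units) of regions listed for Foxp4, Foxn3 and Foxp1 by distance of the region's centre from the gene's 5′ end (kb, positive into the gene, dotted line at the 5′ end), with 1 row per ChIP library, HEB in blue and SMAD2/3 in red. Foxn3 has its tallest stem, 267, in Endoderm HEB and Foxp4 its tallest, 277, in ESC HEB.

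The second comparison asks where SMAD2/3 was found in endoderm and where in stem cells. Endoderm SMAD2/3 named all 5 genes of the ESC SMAD2/3 list and 10 more. The 10 were Foxd4, Foxf2, Foxj2, Foxj3, Foxn2, Foxo1, Foxo3, Foxo4, Foxo6 and Foxq1. All 4 listed FOXO genes are among them, and ESC SMAD2/3 named none of the 4. Of all protein-coding genes, Endoderm SMAD2/3 listed 23.1% and ESC SMAD2/3 listed 7.32%, so the absence of 4 genes from the stem-cell list says little. A stem-cell SMAD2/3 region with no gene assigned, of height 28.8, lay within 50 kb of the 5′ end of Foxo1. The FOXO proteins are kept out of the nucleus by insulin and PI3K signalling. All 6 ESC SMAD2/3 regions at forkhead genes overlapped an Endoderm SMAD2/3 region (95% exact interval 54.1 to 100%), as did 38.7% of all ESC SMAD2/3 regions. Of the 29 Endoderm SMAD2/3 regions at forkhead genes, 6 (20.7%, 7.99 to 39.7) overlapped an ESC SMAD2/3 region, as did 14.2% of all Endoderm SMAD2/3 regions. The ESC SMAD2/3 list was the shortest of the 6, and its 6 forkhead regions had heights of 25 to 61.9.

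Foxk1 showed the largest difference. At the region 38274 bp from its 5′ end (chr5:142915725-142916958 in Endoderm SMAD2/3), the SMAD2/3 heights were 157 in endoderm and 31.4 in stem cells, a log2 ratio of 2.32. HEB at the same place had 52.6 in Endoderm+SB HEB, 95.6 in Endoderm HEB, 79.4 in ESC+SB HEB and 47 in ESC HEB. SMAD2/3 was higher in endoderm than in stem cells there, and so, to a smaller extent, was HEB. A second Foxk1 region, 14598 bp from the 5′ end, had 76.2 in Endoderm SMAD2/3, 46.6 in Endoderm+SB HEB and 112 in Endoderm HEB, and no region in the 3 stem-cell lists.

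At Foxp4, the SMAD2/3 heights at the region 36094 bp from the 5′ end were 160 in endoderm and 50.3 in stem cells, a log2 ratio of 1.67. HEB at that place had 141 in Endoderm HEB, 123 in ESC+SB HEB and 209 in ESC HEB, and no region in Endoderm+SB HEB. SMAD2/3 was thus higher in endoderm where HEB was lower. A neighbouring Foxp4 region, 34500 bp from the 5′ end, was listed in 2 lists, with 98.7 in Endoderm SMAD2/3 and 82.1 in Endoderm HEB.

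Upstream of Foxp2, the SMAD2/3 heights were 81.4 in endoderm and 29 in stem cells, a log2 ratio of 1.49. The HEB heights there were 30.2 in Endoderm+SB HEB, 37.9 in Endoderm HEB, 54.2 in ESC+SB HEB and 51.6 in ESC HEB, lower in both sets of differentiating cells than in both sets of stem cells. Foxn3, with 77.3 in endoderm and 61.9 in stem cells, had a log2 ratio of 0.32. Foxp1, with 36.7 in endoderm and 37.8 in stem cells, had -0.04. The second Foxp4 pair, with 26.4 in endoderm and 25 in stem cells, had 0.07. The median over the 6 forkhead pairs was 0.90, and over all 1557 pairs it was 0.36. Of the 6 pairs, 3 lay at least 2-fold above the median of all pairs, as did 13.4% of all pairs.

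At the 10 genes named for SMAD2/3 in endoderm and not in stem cells, heights ran between 25.6 and 63.9, beside a median of 34.4 over all Endoderm SMAD2/3 regions. Foxo3 had 63.9 in a region 587 bp upstream of its 5′ end and 26.3 in another inside the gene. Foxo4 had 35, in a region that the lists also give to Gm614. Foxo6, a FOXO gene of the brain, had 30.7 over its 5′ end and 28 inside the gene. Foxo1 had 25.6, close to the smallest height listed. Foxj3 had 61.8, Foxj2 had 49.2 and Foxq1, the gene altered in satin mice, had 47.9. Foxf2 had 37.9, Foxd4 had 31.4 and Foxn2 had 28.9. Foxn2 was listed over its 5′ end in Endoderm+SB HEB, at 36.1, and in ESC+SB HEB, at 32.5, and in neither HEB list without SB431542, although SMAD2/3 was listed there in endoderm without it.

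HEB and SMAD2/3 can be set side by side within the same cells. In endoderm, 20 of 51 HEB regions at forkhead genes overlapped a SMAD2/3 region, which is 39.2% (25.8 to 53.9), against 35.3% of all HEB regions. In stem cells, 6 of 56 did, which is 10.7% (4.03 to 21.9), against 19.8% of all. Seen from SMAD2/3, 20 of 29 endoderm regions overlapped HEB (69%, against 60.5% of all), and 6 of 6 did in stem cells (83.9% of all). The forkhead shares with SMAD2/3 in endoderm were near those of all regions, whose values lie inside the intervals. Of the 12 genes with an overlapping pair in endoderm, Foxd4 had 279 for HEB and 31.4 for SMAD2/3, the largest ratio (log2 3.15). Foxp1, at the region 83401 bp from its 5′ end, had 25.7 for HEB and 67.4 for SMAD2/3, the smallest (log2 -1.39). The Foxn3 region of tallest HEB had 267 for HEB and 39.3 for SMAD2/3 (log2 2.77), Foxp2 had 37.9 for HEB and 81.4 for SMAD2/3 (log2 -1.10), and Foxo3 had 35.8 for HEB and 63.9 for SMAD2/3 (log2 -0.84). Of the 20 pairs in endoderm, 2 lay at least 2-fold above the median ratio of all 6609 pairs, where 18.0% of all did, and 4 lay at least 2-fold below it, where 9.77% did. Foxp4, at the region 36094 bp from its 5′ end for SMAD2/3, was tall for both, with 141 for HEB and 160, the tallest forkhead SMAD2/3 region, for SMAD2/3. Foxk1 had 95.6 for HEB and 157 for SMAD2/3 at 1 region, and 112 for HEB and 76.2 for SMAD2/3 at the other.

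In stem cells, the 6 overlapping pairs belonged to 5 genes, and HEB was the higher in each, as it was at the median of all 3391 pairs (log2 0.74). Foxp4 had 209 for HEB and 50.3 for SMAD2/3 at 1 region, and 93.3 for HEB and 25 for SMAD2/3 at the other. Both of these lay at least 2-fold above the median ratio of all pairs, where 14.0% of all did, and none lay at least 2-fold below it, where 10.9% did. Foxp2 had 51.6 for HEB and 29 for SMAD2/3. Foxk1 had 47 for HEB and 31.4 for SMAD2/3, Foxp1 had 56.5 for HEB and 37.8 for SMAD2/3, and Foxn3 had 85.6 for HEB and 61.9 for SMAD2/3.

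The third comparison is that of HEB with and without SB431542 in stem cells. All 29 forkhead genes of ESC HEB were listed in ESC+SB HEB too, which named 3 more, Foxj3, Foxn1 and Foxn2. Of the 56 ESC HEB regions, 46 (82.1%, 69.6 to 91.1) overlapped an ESC+SB HEB region, and 74.8% of all ESC HEB regions did. The 10 without a counterpart had heights of 25 to 50.2 and lay at Foxd4, Foxk1, Foxn3, Foxp1 and Foxp4. Over the 44 pairs, the median log2 ratio of height, with over without SB431542, was 0.23, against 0.10 over all 12603 pairs. Heights of the 44 pairs lay mostly close to those without the inhibitor: no pair lay at least 2-fold above the median of all pairs, where 0.302% of all pairs did, and 2 lay at least 2-fold below it, where 3.07% did.

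Both of these were at Foxp4. The region 46733 bp from the 5′ end had 69.3 in ESC+SB HEB and 277 in ESC HEB, a log2 ratio of -2.00. The next, 48602 bp from the 5′ end, had 36.7 in ESC+SB HEB and 80.7 in ESC HEB, a log2 ratio of -1.14. The region 35865 bp from the 5′ end had 123 with the inhibitor and 209 without, a log2 ratio of -0.76. The other Foxp4 regions in stem cells differed less. At 25489 bp from the 5′ end, ESC+SB HEB had 84.4 and ESC HEB 93.3 (log2 -0.15), and over the 5′ end ESC+SB HEB had 86.3 and ESC HEB 68.2 (log2 0.34). Foxp4 regions 46733 and 48602 bp from the 5′ end had no SMAD2/3 region over them in stem cells, and the one at 35865 bp had one of height 50.3. Foxr2 had 105 in ESC+SB HEB and 187 in ESC HEB over its 5′ end, a log2 ratio of -0.83.

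The highest ratios were at Foxd2, with 48.2 in ESC+SB HEB and 26.8 in ESC HEB (log2 0.85), at Foxk1, with 79.4 in ESC+SB HEB and 47 in ESC HEB (log2 0.76), and at Foxd1, with 41.7 in ESC+SB HEB and 25.4 in ESC HEB (log2 0.72). Foxf1a had 129 in ESC+SB HEB and 86.3 in ESC HEB (log2 0.58). Foxf2 had 152 in ESC+SB HEB and 120 in ESC HEB (log2 0.34). In tag ratio, the same comparison ran the other way over the forkhead pairs, with a median log2 ratio of -0.13 and one of -0.24 over all pairs, so neither direction can be given for the group.

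The fourth comparison is that of HEB with and without SB431542 in differentiating cells. Both lists named 15 forkhead genes. Endoderm+SB HEB named Foxd2 and Foxn2 in addition, and Endoderm HEB named 7 others, Foxc1, Foxe1, Foxf2, Foxj1, Foxo1, Foxo4 and Foxq1. Of the 51 Endoderm HEB regions, 16 (31.4%, 19.1 to 45.9) overlapped an Endoderm+SB HEB region, and 25.3% of all Endoderm HEB regions did. Both shares were below those found in stem cells, 82.1% at forkhead genes and 74.8% over all regions, and the Endoderm+SB HEB list was the shorter. The 35 regions without a counterpart reached a height of 141, at Foxp4.

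Foxf2 had the tallest HEB region among the 7 genes, 89.2 in Endoderm HEB, and the same place had 152 in ESC+SB HEB and 120 in ESC HEB. Endoderm+SB HEB listed nothing there. Foxc1 had 59.2 in Endoderm HEB, 28.6 in ESC+SB HEB and 37.4 in ESC HEB. Foxo1 had 54.7 and 32.2 at its regions in Endoderm HEB, and Foxo4 had 53. Foxq1 had 29.8, Foxj1, the master gene of motile cilia, had 26 and 25.4, and Foxe1, a thyroid gene, had 25, so the last 3 lay near the smallest height listed.

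Over the 16 pairs, the median log2 ratio of height, with over without SB431542, was -0.81, against -0.12 over all 4753 pairs. Of the 16, 6 lay at least 2-fold below the median of all pairs, where 15.6% of all pairs did, and 1 lay at least 2-fold above it, where 6.88% did. Foxn3 held both ends of the range. At the region 107283 bp from its 5′ end, the heights were 27.1 in Endoderm+SB HEB and 267 in Endoderm HEB, a log2 ratio of -3.30, with tag ratios of 7 and 51.6. At 119763 bp from the 5′ end, they were 93 in Endoderm+SB HEB and 47.9 in Endoderm HEB, a log2 ratio of 0.96, with tag ratios of 17.7 and 11.7. ESC+SB HEB had 30.1 at this second place, and ESC HEB listed none.

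Foxr2 had 26.7 in Endoderm+SB HEB and 105 in Endoderm HEB, a log2 ratio of -1.98. Foxj2 had 32.8 in Endoderm+SB HEB and 99.4 in Endoderm HEB (log2 -1.60). At the region 14550 bp from its 5′ end, Foxk1 had 46.6 in Endoderm+SB HEB and 112 in Endoderm HEB (log2 -1.27). Foxf1a had 31.4 in Endoderm+SB HEB and 72.2 in Endoderm HEB (log2 -1.20), and its region measured 834 bp with the inhibitor and 3672 bp without it. Foxc2 had 26.4 in Endoderm+SB HEB and 58.2 in Endoderm HEB (log2 -1.14). Foxd4 had 136 in Endoderm+SB HEB and 279 in Endoderm HEB (log2 -1.04), and its region stayed the tallest forkhead region of the Endoderm+SB HEB list. In tag ratio, the median over the 16 pairs was -0.22 on the log2 scale, against -0.15 over all pairs.

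Some regions were listed with SB431542 and not without it. Inside Foxp1, 58665 bp from the 5′ end, Endoderm+SB HEB had a region of height 81.1 and tag ratio 29.7, and none of the other 5 lists had one. Inside Foxp4, 25778 bp from the 5′ end, HEB had 87.1 in Endoderm+SB HEB, 84.4 in ESC+SB HEB and 93.3 in ESC HEB, and Endoderm HEB was the list with no region, although Endoderm SMAD2/3 had 26.4 there. Inside Foxk1, 50189 bp from the 5′ end, Endoderm+SB HEB had 47.2, and no other list had a region.

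**Figure D3:**
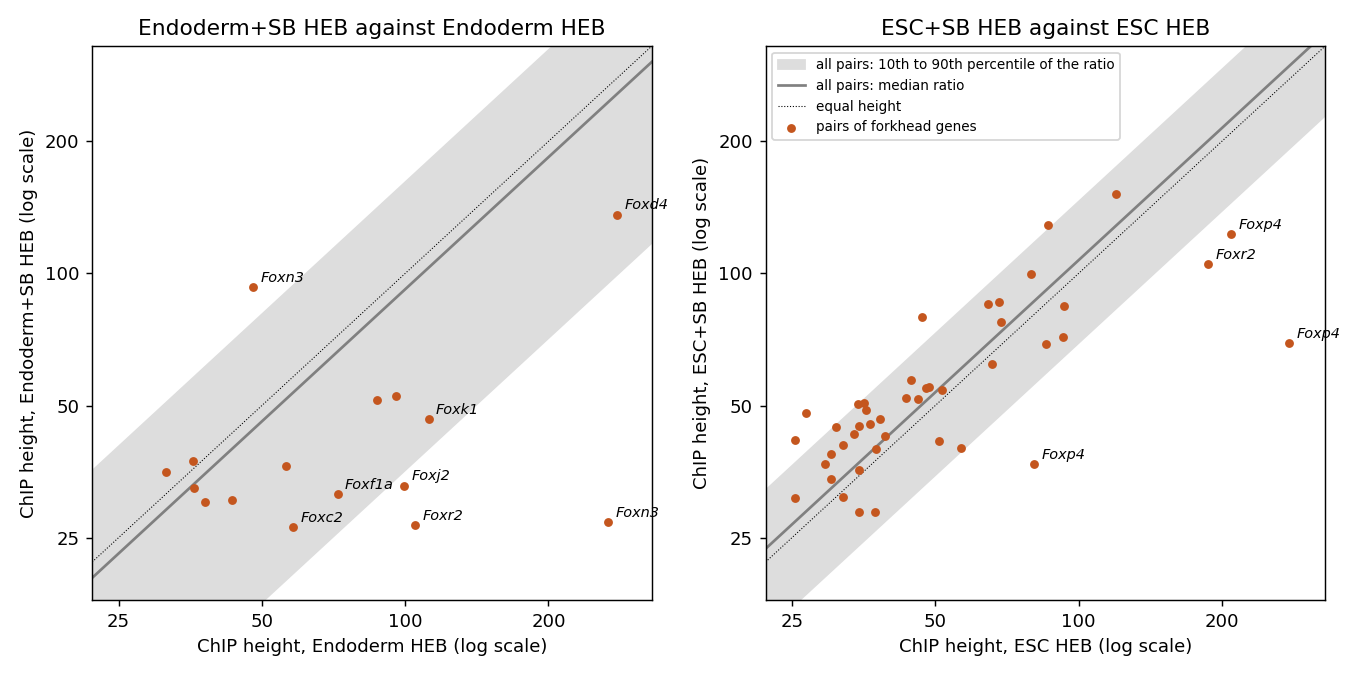
ChIP height of HEB with SB431542 (vertical axis) against that without (horizontal axis), both on log scales in deposited units, for overlapping pairs of regions at forkhead genes in differentiating cells (left, 16 pairs) and stem cells (right, 44 pairs), with 1 library per group. The grey band spans the 10th to 90th percentile of the ratio over all pairs, and Foxn3, at 27.1 against 267, and Foxp4, at 69.3 against 277, are among the points below it.

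With SB431542 in both, for 48 hours in differentiating cells and 24 in stem cells, the 17 forkhead genes of Endoderm+SB HEB were all among the 32 of ESC+SB HEB. Of the 23 Endoderm+SB HEB regions, 16 (69.6%, 47.1 to 86.8) overlapped an ESC+SB HEB region, and 38.1% of all Endoderm+SB HEB regions did. The median log2 ratio of height over the 16 pairs was -0.65, against -0.32 over all 3782 pairs. Of the 16, 1 lay at least 2-fold above the median of all pairs, where 5.66% of all pairs did, and 4 lay at least 2-fold below it, where 10.1% did. The lowest were Foxf1a, with 31.4 in Endoderm+SB HEB and 129 in ESC+SB HEB (log2 -2.04), Foxr2, with 26.7 in Endoderm+SB HEB and 105 in ESC+SB HEB (log2 -1.98), and Foxn3, with 27.1 in Endoderm+SB HEB and 99.5 in ESC+SB HEB (log2 -1.88). The highest was the other Foxn3 region, with 93 in Endoderm+SB HEB and 30.1 in ESC+SB HEB (log2 1.63), followed by Foxn2, with 36.1 in Endoderm+SB HEB and 32.5 in ESC+SB HEB, and Foxo3, with 37.3 in Endoderm+SB HEB and 33.5 in ESC+SB HEB (log2 0.15 each).

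Some of the forkhead regions were wide. Widths count both end bases. Regions of 2 kb or more made up 0 of 23 in Endoderm+SB HEB, which allows a share of up to 13%, against 0.237% of all regions of that list. They made up 5 of 51 in Endoderm HEB (9.8%, against 1.05% of all), 10 of 52 in ESC+SB HEB (19.2%, against 2.59%), 8 of 56 in ESC HEB (14.3%, against 2.06%), 1 of 29 in Endoderm SMAD2/3 (3.45%, against 0.716%) and 0 of 6 in ESC SMAD2/3, which allows up to 50%, against 0.170%. All regions here include those without a gene. Among regions with a gene, 0.314% were that wide in Endoderm+SB HEB, 1.44% in Endoderm HEB, 3.4% in ESC+SB HEB and 2.95% in ESC HEB. For SMAD2/3 the shares were 0.93% in endoderm and 0.281% in stem cells. Foxf2 had the widest in both stem-cell HEB lists, with 3584 bp in Endoderm HEB, 4406 bp in ESC+SB HEB and 4375 bp in ESC HEB, each over the 5′ end, and 1840 bp in Endoderm SMAD2/3. Foxf1a had 834 bp in Endoderm+SB HEB, 3672 bp in Endoderm HEB, 3760 bp in ESC+SB HEB and 3762 bp in ESC HEB. Foxb1, a gene of the hypothalamus, had 1251 bp in Endoderm+SB HEB, 3455 bp in Endoderm HEB, 3179 bp in ESC+SB HEB and 3523 bp in ESC HEB. Foxl2 had 3155 bp in ESC+SB HEB and 3180 bp in ESC HEB, and Foxd1 had 2683 bp in ESC+SB HEB and 2542 bp in ESC HEB. These regions were wide in both stem-cell lists, and, where they were listed, in Endoderm HEB.

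Widths by subfamily were pooled over the 6 lists, so a place listed in several lists counts once for each, and the regions are not independent. By subfamily, the median width over all 6 lists was 3628 bp for the 10 regions of F, 3168 bp for the 2 of L and 1840 bp for the 11 of B. It was 1112 bp for the 4 of R and 1176 bp for the 18 of D. The subfamilies of most regions had narrower ones, with 612 bp for the 56 of P, 764 bp for the 33 of N and 819 bp for the 31 of O, and C, with 575 bp for 7 regions, was the narrowest. Foxo3 in ESC+SB HEB (3372 bp), and Foxp4 in Endoderm HEB (2355 bp), ESC+SB HEB (2232 bp) and Endoderm SMAD2/3 (2311 bp), passed 2 kb too.

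**Figure D4:**
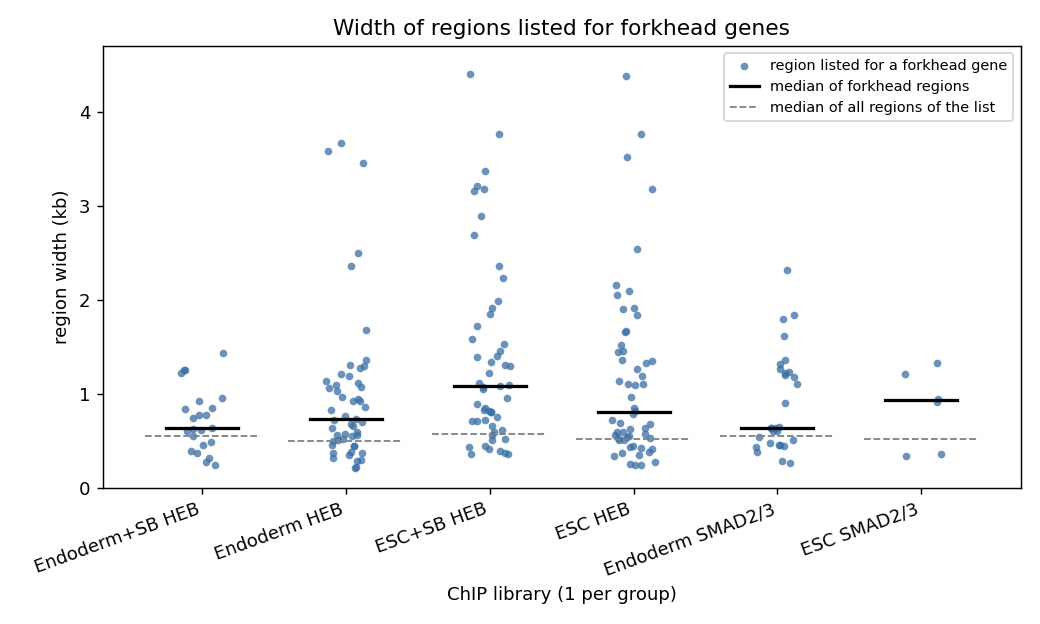
Width (kb) of every region listed for a forkhead gene (points) in the 6 ChIP libraries, 1 library per group, with black bars at their median and dashed lines at the median of all regions of the list. The black bar lies above the dashed line in each list, at 1080 bp against 574 bp in ESC+SB HEB, and points above 3 kb appear in Endoderm HEB and in both stem-cell HEB lists.

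In each list the share of regions near a 5′ end was larger among forkhead regions than among all regions, a set that includes regions without a gene. Within 1 kb of the gene's 5′ end lay 47.8% of the forkhead regions in Endoderm+SB HEB (26.8 to 69.4), against 34.5% of all regions, with or without a gene. The shares were 23.5% in Endoderm HEB (12.8 to 37.5), against 15.1%, 48.1% in ESC+SB HEB (34 to 62.4), against 28.4%, and 35.7% in ESC HEB (23.4 to 49.6), against 17.7%. For SMAD2/3 they were 37.9% in endoderm (20.7 to 57.7), against 30.3%, and 16.7% in stem cells (0.421 to 64.1), against 15.2%. Only regions assigned to a gene can count here. Among all regions that have one, the shares were 55% in Endoderm+SB HEB, 28.6% in Endoderm HEB, 46.2% in ESC+SB HEB and 32.1% in ESC HEB. They were 49.4% in Endoderm SMAD2/3 and 29.3% in ESC SMAD2/3. Each of these values lies inside the interval of the forkhead share. The forkhead share was above the value in ESC+SB HEB and ESC HEB and below it in the other lists, so no direction holds in each list.

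Letters of the promoters were searched on both strands. RefSeq's table held 28 windows of 300 bases for 25 of the 40 genes. The E-box CANNTG occurred in 67.9% of them, against 72.3% of all 32851 promoter windows. CAGCTG occurred in 17.9%, against 16.3% of all, CACCTG in 25%, against 20.2%, and CATCTG in 3.57%, against 17.2%, and each of these is itself a CANNTG. Among the 13 genes with a HEB region over the 5′ end, 53.8% of windows held CANNTG. The SMAD box CAGAC occurred in 35.7% of forkhead windows, against 49.6% of all, and its palindrome GTCTAGAC, which holds no CAGAC, in none, against 0.213%. The forkhead motif GTAAACA occurred in none, against 3.65% of all, and AATNNACA, the kind bound by FOXH1, in 10.7%, against 12.2%. The median GC content of the forkhead windows was 62.8%, against 52.7% of all.

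Other families of developmental regulators give a scale for the forkhead counts. Of the 4 genes Foxa1 to Foxa3 and Foxh1, none was listed in Endoderm+SB HEB, 4 were in Endoderm HEB, 3 in ESC+SB HEB, 3 in ESC HEB, 3 in Endoderm SMAD2/3 and 1 in ESC SMAD2/3. Of 39 Hox genes, 5 were listed in Endoderm+SB HEB, 11 in Endoderm HEB and 37 in each of the stem-cell HEB lists. Of 13 Tbx genes, 3 were listed in Endoderm+SB HEB, 9 in Endoderm HEB, and 8 in each of ESC+SB HEB and ESC HEB. Of 19 Sox genes, 10 were listed in Endoderm+SB HEB, 11 in Endoderm HEB, 11 in ESC+SB HEB and 10 in ESC HEB. The forkhead genes had 42.5% listed in Endoderm+SB HEB and 80% in ESC+SB HEB, between the Sox genes, with 52.6% in Endoderm+SB HEB and 57.9% in ESC+SB HEB, and the Hox genes, with 12.8% in Endoderm+SB HEB and 94.9% in ESC+SB HEB. Of 9 Pax genes, 55.6% were listed in Endoderm+SB HEB, 77.8% in Endoderm HEB, 77.8% in ESC+SB HEB and 88.9% in ESC HEB.

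The FOXO genes belong to a pathway of which 35 other genes were counted, regulators such as Akt1 and Sgk1 and genes that FOXO proteins are known to regulate, such as Cdkn1a, Bcl2l11 and Txnip. Of these 35, 19 were listed in Endoderm+SB HEB (54.3%), 19 in Endoderm HEB (54.3%), 23 in ESC+SB HEB (65.7%), 17 in ESC HEB (48.6%), 21 in Endoderm SMAD2/3 (60%) and 6 in ESC SMAD2/3 (17.1%). At their regions of highest tag ratio in ESC SMAD2/3, Cdkn1a had a height of 25.4 and Sgk1, a kinase that inactivates FOXO proteins, had one of 46.3. Sgk1 held 1 region in Endoderm+SB HEB, 6 in Endoderm HEB and 7 in each of ESC+SB HEB and ESC HEB. Its region of highest tag ratio had a height of 36.5 in Endoderm HEB, 2328 bp from the 5′ end, 105 in ESC+SB HEB, 2155 bp from it, and 130 in ESC HEB, 2156 bp from it. The 1 region in Endoderm+SB HEB lay elsewhere, 54985 bp from the 5′ end, with a height of 31.2. Over the 6 lists, the share of all protein-coding genes ran between 7.32% and 29.9%. Foxo3 itself, which restrains the cell cycle in resting stem cells, had heights of 37.3 in Endoderm+SB HEB and 35.8 in Endoderm HEB just upstream of its 5′ end, and 33.5 there in ESC+SB HEB. It had 57.3 in ESC+SB HEB and 44.4 in ESC HEB at a region 29897 bp from the 5′ end that no endoderm list held.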

How the data were processed

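Each of 6 groups was profiled with 1 ChIP library. The deposited lists give, per the file headers, a ChIP and an input tag count for each region, the greatest ChIP signal (the height), a fold of ChIP over input tags (the tag ratio) and a score named as −log10 q, which was not used because its values are too large for that scale. Base calling with CASAVA 1.8.2 and the mm9 build are named in the submitters' processing notes. For the aligner, the region caller, the annotation, the scaling of heights and the first base of the coordinates (0 or 1), the name or setting counts as not given in the sources used here.

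Rows of 1 region were joined. Symbols were matched to RefSeq, with 99.2% of 10730 found. Regions overlapped where they shared at least 1 bp, and reciprocal best overlaps formed pairs. Ratios are log2 of the deposited signal. Shares have exact Clopper-Pearson 95% intervals. Overlap and pairing were tested on simulated data and against bedtools. Python 3.11.15, pandas 2.3.3, numpy 2.4.6 and scipy 1.17.1 were used.

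Named genes are, in each list, the 6 of highest tag ratio and the 3 of most regions, every gene with SMAD2/3 or listed in 1 of 2 compared lists, and the 3 highest and 3 lowest ratios of each pair of lists; wide regions, promoters and other pairs were chosen after their values were seen. A few genes that these rules name are not reported here. The members and lists were chosen with earlier results of these data known.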

Additional observations from a re-analysis of the deposited data

Results flagged for a closer look

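At 6 forkhead genes, of 10 places with an overlapping pair in both states, HEB was lower with SB431542 in differentiating cells and higher with it in stem cells at overlapping regions, each by at least 0.3 on the log2 scale of height. The log2 ratio of height with over without SB431542 at Foxk1 was -0.86 in differentiating cells and 0.76 in stem cells. Foxf1a had -1.20 in differentiating cells and 0.58 in stem cells, and Foxb1 had -0.51 in differentiating cells and 0.40 in stem cells. Foxc2 had -1.14 in differentiating cells and 0.36 in stem cells. Over the 5′ end of Foxp4 the ratio was -0.63 in differentiating cells and 0.34 in stem cells. Foxn3 had -3.30 in differentiating cells and 0.32 in stem cells. The 6 are 60.0% of the 10, and of all 2198 such places in the lists 15.5% met the same limit. In tag ratio, 2 of the 10 did, against 6.78% of all. Of the 6 genes named, Foxf1a alone did, with -0.63 in differentiating cells and 0.36 in stem cells. The other place was at Foxj2, which did not meet the limit in height. Foxb1 had -0.22 in differentiating cells and 0.56 in stem cells, Foxk1 had -0.21 and 0.09, and Foxc2 had -0.04 and 0.06. The stem-cell values of Foxp4 and Foxn3 turned to -0.66 and -0.04. Over all pairs the median was -0.12 in differentiating cells and 0.10 in stem cells. With 1 library per group, the difference between the states was not tested.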

How the results depend on the processing

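No paired analysis was possible because each group has 1 ChIP library. Of 94 alternative values of the counts, shares and medians compared, 61 stayed within 1.5 times of a count, inside a share's interval or within 1.5-fold of a median ratio. A common height floor of 28, symbols without a final letter, an overlap of 50% of the shorter region and a 500 bp promoter window moved none of these values.

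Shorter lists hold fewer genes by construction. The genes listed fell to 9 in Endoderm+SB HEB, 20 in ESC+SB HEB and 18 in ESC HEB with the upper 50% of regions by tag ratio, and to 8 in Endoderm+SB HEB, 17 in ESC HEB and 3 in ESC SMAD2/3 with the upper 50% by height. With every list cut to 4111 regions by tag ratio they were 7 in Endoderm+SB HEB, 6 in Endoderm HEB, 14 in ESC+SB HEB, 11 in ESC HEB and 9 in Endoderm SMAD2/3. Genes in both lists numbered 12, 5 and 13 (upper 50% by tag ratio, 4111 regions, upper 50% by height) for Endoderm and ESC HEB, 16, 11 and 17 for ESC HEB with and without SB431542, and 8, 3 and 7 for Endoderm HEB with and without it. For SMAD2/3 the upper 50% by height left 3. At 4111 regions, 25% of the forkhead ESC HEB regions overlapped SMAD2/3.

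With a window of 0 bp, 21.7% of Endoderm+SB HEB and 0% of ESC SMAD2/3 forkhead regions lay at a 5′ end. In tag ratio, the median log2 ratio reversed to 0.12 for Endoderm over ESC HEB and to -0.13 for ESC+SB over ESC HEB, and was -0.22 for Endoderm+SB over Endoderm HEB; the cause was not tested. Limits for wide regions were chosen after seeing the data. At 1 kb, wide forkhead regions numbered 18 of 51 in Endoderm HEB, 28 of 52 in ESC+SB HEB and 25 of 56 in ESC HEB. Of all regions, with or without a gene, 8.66%, 16.6% and 12.6% in the same lists were that wide. At 3 kb the forkhead regions numbered 3, 6 and 4, against 0.269%, 0.763% and 0.546% of all regions.

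Total library depth is unknown, so heights of different libraries carry an unknown scale factor. A gene without a region is one not listed under the caller's thresholds.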

Other observations

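Regions to which the lists give no gene lay near some forkhead genes, within 50 kb of those 5′ ends whose mm9 position followed from the listed distances. The window was chosen after the lists had been seen, and whether another gene lies nearer was not checked. Near Foxj1, Endoderm HEB had 4 such regions, with a greatest height of 465, above any region assigned to a forkhead gene, and Endoderm SMAD2/3 had 3, with a greatest height of 83.7. ESC+SB HEB had 1 there, of 52.5, ESC HEB had 1, of 49.3, and ESC SMAD2/3 had 1, of 31.1. Near Foxc1, Endoderm HEB had 4, reaching 139, Endoderm SMAD2/3 had 2, reaching 107, and ESC+SB HEB had 1, of 28.8. Near Foxq1, Endoderm HEB had 2, reaching 52.3, and Endoderm SMAD2/3 had 2, reaching 108. Near Foxj2, Endoderm HEB had 3, reaching 161, ESC+SB HEB had 2, reaching 38.3, ESC HEB had 1, of 55.9, and Endoderm SMAD2/3 had 3, reaching 36.1. Near Foxo1, Endoderm HEB had 1, of 93.2, ESC+SB HEB had 1, of 93.3, ESC HEB had 1, of 82.1, Endoderm SMAD2/3 had 1, of 26, and ESC SMAD2/3 had 1, of 28.8.

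Near Foxd3, which Endoderm HEB did not name, Endoderm HEB had 1 unassigned region of height 68.9 and Endoderm SMAD2/3 had 1 of 83.8. ESC+SB HEB had 3 there, reaching 53.7, ESC HEB had 4, reaching 66.6, and ESC SMAD2/3 had 2, reaching 33.3. Foxd4 had none in any list.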
